A study of Rattus norvegicus with 36 samples.

Results

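The comparison described here sets exon usage in cells given an siRNA against QKI beside exon usage in cells given an siRNA against hnRNP A1. It rests on 6 of the 18 arrays of the exon-level table, 3 per siRNA, chosen by their titles. The series lists 36 samples because every array appears at the gene level and at the exon level. All samples come from CG-4, a rat line of oligodendrocyte progenitors grown in medium conditioned by B104 cells. The 2 groups of siRNA-treated cells and their control, given a non-silencing siRNA, were transiently transfected with Lipofectamine. The other groups are untreated cells, a line stably carrying an shRNA against QKI and a line with a non-silencing shRNA, also with 3 arrays each. The labels call the arrays biological replicates without saying which cultures they came from, so p-values measure the spread between these arrays. The labels give no time after transfection, no siRNA sequence and no number of clones behind a stable line.

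QKI is an RNA-binding protein of the STAR family that is abundant in glia and acts on the splicing, export and stability of myelin transcripts. HnRNP A1 is a nuclear RNA-binding protein best known for repressing splice sites by binding exons and the introns beside them. Exon arrays carry a small group of probes, a probe set, for each stretch of exon, so a change in exon inclusion appears as 1 probe set departing from the others of its gene. For that reason each log2 intensity was set against the mean of the other probe sets of the gene on the same array, and this difference is called the relative value below. The difference between the siRNAs is always QKI minus hnRNP A1, so a negative one means that the probe set lay lower against its gene after QKI siRNA. The level of the non-silencing control cancels in it. The annotation used here gives a gene for each probe set but no exon or position, so whether a probe set lies in a cassette exon, an alternative end or another stretch is not stated.

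The targeted genes were examined first. Qki had gene-level log2 values of 9.99, 10.02 and 9.67 after QKI siRNA, 11.09, 11.09 and 10.98 after hnRNP A1 siRNA, and 11.47, 11.39 and 11.14 after non-silencing siRNA. The QKI siRNA arrays lay below all others of these 3 groups. Qki differed between the siRNAs by -1.16 ± 0.22 (log2, limma SE, 3 arrays per group), with an adjusted p of 0.467 over 18901 transcript clusters. All 14 probe sets of Qki had lower values after QKI siRNA, by -1.55 to -0.14, with a median of -0.96, and 0 of them passed adjustment.

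Hnrnpa1 had gene-level log2 values of 8.27, 8.38 and 7.85 after QKI siRNA, 7.90, 7.85 and 7.65 after hnRNP A1 siRNA, and 8.60, 8.47 and 8.44 in the non-silencing control. The hnRNP A1 siRNA arrays lay below the control, but the third QKI siRNA array lay among them, so the groups overlapped. The difference of 0.37 ± 0.19 had an adjusted p of 1.00 in limma. Against the non-silencing control, the targeted gene differed by -0.70 ± 0.19 after hnRNP A1 siRNA (Hnrnpa1, limma adjusted p = 0.393) and by -1.44 ± 0.22 after QKI siRNA (Qki, adjusted p = 0.179). Of the 3 Hnrnpa1 probe sets, 2 were higher after QKI siRNA, by 0.73 and 0.57, and 1 was lower by -0.19. In relative values that last probe set differed by -0.84 ± 0.37 (unadjusted p = 0.037). The third QKI siRNA array, at 7.11 against 8.70 and 8.39 on the other QKI siRNA arrays, carried the low values.

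**Figure D1:**
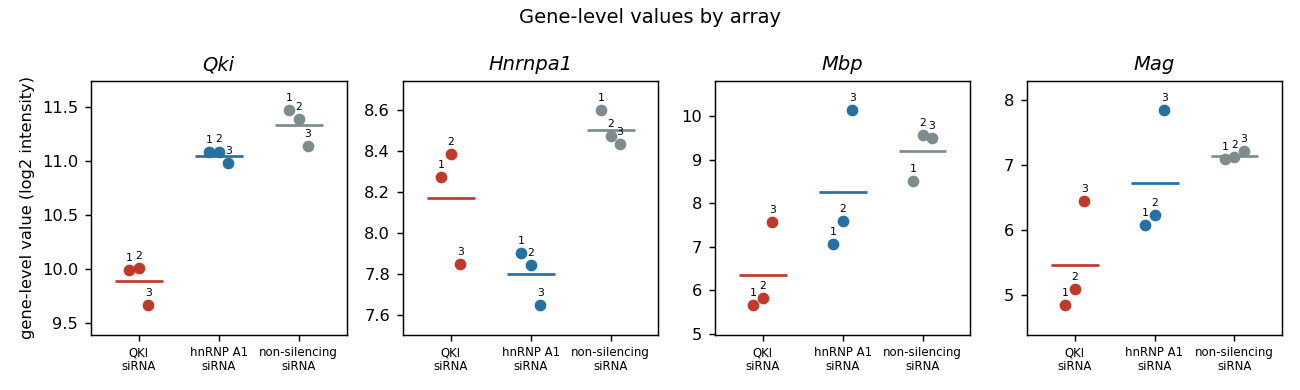
Gene-level log2 intensity of Qki, Hnrnpa1, Mbp and Mag on each array, with the replicate number above each point and a line at the group mean, on a separate vertical scale per gene. Qki separates the QKI siRNA arrays from the rest, Hnrnpa1 overlaps between the 2 knockdowns, and array 3 of both knockdowns is the highest of its group for Mbp and Mag.

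The cells carried the markers of their lineage. Of 7 oligodendrocyte lineage markers 5 had a gene-level value, and Sox10, Olig1, Nkx2-2 and Cnp stood well above the array median, whereas Cspg4 was dim at a mean of 3.82 after QKI siRNA and 3.60 after hnRNP A1 siRNA. The mean over the 5 markers was 8.03 to 8.49 on the QKI siRNA arrays and 8.19 to 8.69 on the hnRNP A1 siRNA arrays. The corresponding means were 4.23 to 4.43 and 4.31 to 4.47 for astrocyte markers, 4.21 to 4.50 and 4.23 to 4.46 for neuron markers, and 3.36 to 3.61 and 3.42 to 3.59 for microglia markers. Schwann cell markers lay at 3.99 to 4.64 and 3.92 to 4.09, and fibroblast markers at 3.70 to 4.07 and 3.67 to 4.01. Some members of these other lists lay above the array median on all 6 arrays. Among astrocyte markers these were S100b, at 6.27 after QKI siRNA and 7.21 after hnRNP A1 siRNA, and Gfap, at 4.94 and 4.62. The others were the neuron marker Syt1 at 5.12 and 5.49, the fibroblast marker Col1a2 at 4.89 and 4.78, and the Schwann cell marker Prx at 4.38 and 4.38. No marker gene differed between the siRNAs after adjustment.

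Arrays of one siRNA were about as far apart as arrays of different siRNAs. The SD of the difference in relative value over all probe sets was 0.647 to 0.746 for pairs within QKI siRNA, 0.571 to 0.713 within hnRNP A1 siRNA and 0.475 to 0.753 between the groups, with a median of 0.635 over the 9 pairs between. The closest pair of all was array 1 of QKI siRNA with array 1 of hnRNP A1 siRNA. The QKI siRNA group also had the widest spread, with a median SD of 0.363 against 0.322 for hnRNP A1 siRNA and 0.289 for untreated cells.

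**Figure D2:**
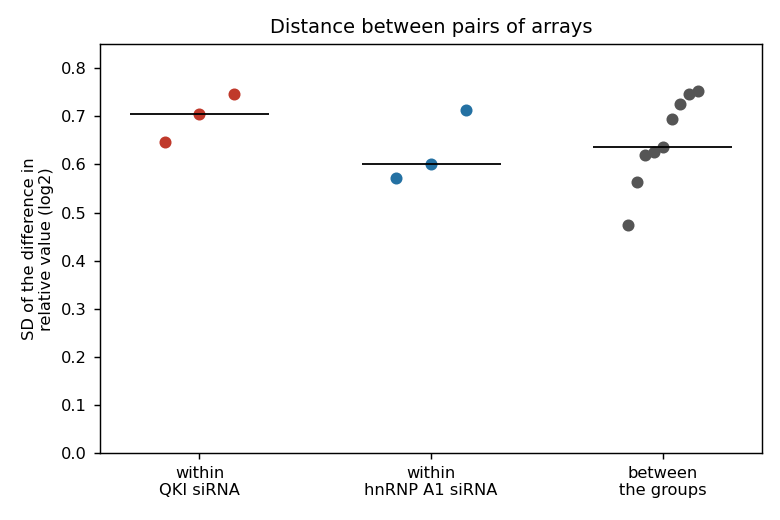
SD, over 115440 probe sets, of the difference in relative value (log2) between 2 arrays, for every pair within and between the 2 siRNA groups; each point is a pair and the line is the median. The 9 pairs between the groups, from 0.475 to 0.753, cover the range of the 6 pairs within them.

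Across the whole table no probe set passed the test. Among 115440 probe sets of 10080 genes, limma called 0 (0%) at an adjusted p under 0.05, and the smallest adjusted p was 0.308. By Simes p-values per gene, 0 of 10080 genes (0%) were called, with a smallest adjusted p of 0.153. At the gene level 0 of 18901 clusters (0%) were called, with 603 at an unadjusted p under 0.05. At an unadjusted p under 0.05, 2670 probe sets (2.31%) lay relatively higher after QKI siRNA and 2805 (2.43%) higher after hnRNP A1 siRNA, together 4.74%, which is about the share such a threshold gives with no difference. By the same measure 480 genes (4.76%) had a Simes p under 0.05. The 3 arrays of one siRNA did not overlap with the 3 of the other at 9172 probe sets (7.95%). The median absolute difference was 0.215, the 99th percentile was 1.06, and the median standard error was 0.316.

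One array bears on this count. Without QKI siRNA array 1, the share of probe sets at an unadjusted p under 0.05 was 9.44% instead of 4.74%, and 1 probe set, in Rag2, a subunit of the recombinase of lymphocytes, had an adjusted p of 0.041. Leaving out any other single array gave 3.86% to 5.93% and 0 called probe sets.

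The genes of lowest p are therefore described by their values, as candidates that did not pass adjustment. These are 18 probe sets of 18 genes, 9 in each direction, with differences of 1.13 to 2.34 in size, unadjusted p from 3.04e-06 to 0.000139 and adjusted p from 0.308 to 0.687. The arrays of the siRNAs did not overlap at any of the 18, which their choice by lowest p makes likely. Of the 18, Avp passed the filter on low values only through the QKI siRNA arrays. Its mean without them was 3.35 and the filter stood at 3.40, so its difference is a description. Avp is still included in the counts over the 18. Among these are the counts at an unadjusted p under 0.05 for QKI siRNA, for hnRNP A1 siRNA and for the stable lines. Those counts are therefore descriptions as well. In 17 of the 18 the probe set's own value differed more than the rest of its gene. Their choice by lowest p favours this, and the share over all probe sets was not computed. The exception was G6pc1, at 0.56 in the probe set and -0.70 in the rest of the gene. The gene-level difference of the 17 genes that have one was at most 0.85 in size.

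Tropomyosins wrap around actin filaments and come in many isoforms made by alternative exons. The tropomyosin gene Tpm3 held the lowest p. Tpm3 probe set 6203554 had relative values of 0.23, 0.56 and -0.01 after QKI siRNA, 1.57, 2.46 and 2.01 after hnRNP A1 siRNA, and 1.62, 1.23 and 1.42 in the non-silencing control. The QKI siRNA arrays lay below every array of both other siRNA groups, and the hnRNP A1 siRNA arrays overlapped with the control. The difference was -1.75 ± 0.26 (limma, unadjusted p = 3.04e-06, adjusted p = 0.308), and it lay in the probe set itself, at -1.74, with 0.01 in the rest of the gene. Among the other 4 probe sets of Tpm3, 2 differed the opposite way by 0.74 ± 0.26 and 0.69 ± 0.24, part of which follows from the measure, since a low probe set lowers the mean that the others are set against. Its paralogue Tpm1 is not among the 18 and was named from the list of cytoskeletal genes. Tpm1 probe set 6485754 had relative values of 0.28, -1.02 and -0.27 after QKI siRNA, -2.53, -2.19 and -1.70 after hnRNP A1 siRNA, and -1.98, -2.38 and -1.93 in the control. Here the QKI siRNA arrays lay above both other siRNA groups, with a difference of 1.80 ± 0.40 (limma, unadjusted p = 0.000258, adjusted p = 0.785). Of the other 15 probe sets 3 were lower at an unadjusted limma p under 0.05. Untreated cells overlapped with QKI siRNA at probe set 6485754, with -1.18, -1.40 and -0.33. Against them QKI siRNA differed by 0.63 ± 0.40 and hnRNP A1 siRNA by -1.17 ± 0.40.

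Genes of membrane proteins gave further low probe sets. Gpm6b encodes a proteolipid related to the major myelin proteolipid. Its probe set 5771865, the brightest of the 18 at a mean log2 value of 11.6, had relative values of -0.78, -1.43 and -1.89 after QKI siRNA, 0.14, 0.25 and 0.28 after hnRNP A1 siRNA, and 0.66, 0.33 and 0.12 in the control. Only the QKI siRNA arrays departed from the control range, and they were spread wider than the others. The difference was -1.59 ± 0.30 (adjusted p = 0.521), while 2 other Gpm6b probe sets were relatively higher by 0.55 and 0.46. Slc44a1, a choline transporter, showed the same order at probe set 6508705. Its relative values were -2.24, -2.67 and -2.07 after QKI siRNA, -1.05, -1.19 and -0.62 after hnRNP A1 siRNA, and -0.64, -1.22 and -0.89 in the control, a difference of -1.37 ± 0.25 (adjusted p = 0.521). It was the only 1 of the 18 Slc44a1 probe sets at an unadjusted p under 0.05.

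Macf1, a giant protein that links microtubules to actin, stood out by number of probe sets. Of its 107 probe sets 18 had an unadjusted p under 0.05, 9 in each direction, beside 4.74% of all probe sets. The low ones differed more, down to -1.75, than the high ones, up to 0.79. Probe set 5861894 had relative values of -2.74, -3.10 and -3.03 after QKI siRNA, -1.57, -1.28 and -1.19 after hnRNP A1 siRNA, and -1.95, -1.48 and -1.82 in the control. Its difference was -1.61 ± 0.28 (limma adjusted p = 0.521). The rest of the gene was uneven between arrays, at 7.65, 7.81 and 9.12 after QKI siRNA and 7.87, 7.93 and 9.59 after hnRNP A1 siRNA. Its mean in the control was 9.90. Macf1 probe set 6715999 had values of -2.64, -2.12 and -3.56 after QKI siRNA, -1.06, -1.39 and -0.63 after hnRNP A1 siRNA, and -0.86, -0.93 and -0.61 in the control. At both, the QKI siRNA arrays lay below both other siRNA groups. Probe set 6284127 differed by -1.24 ± 0.24, but it lay -0.42 below the control after QKI siRNA and 0.82 above it after hnRNP A1 siRNA.

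**Figure D3:**
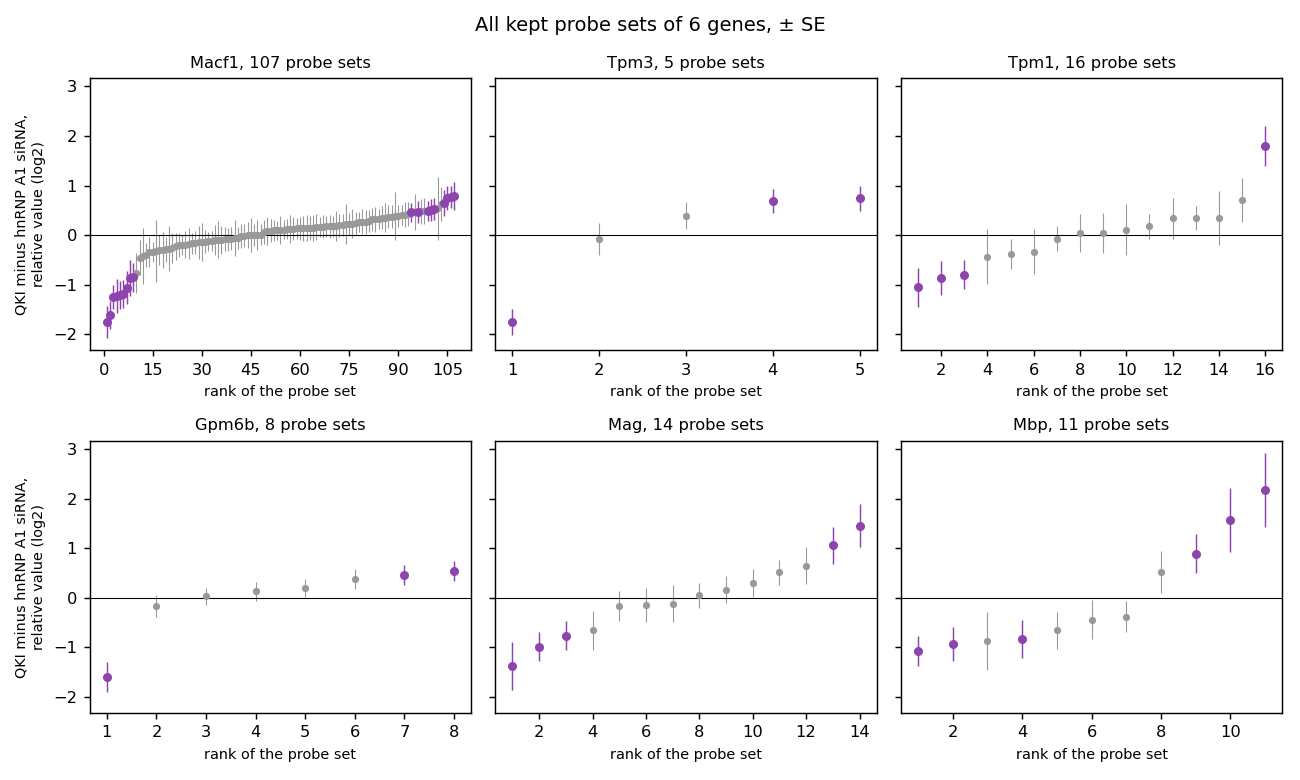
Difference in relative value (QKI siRNA minus hnRNP A1 siRNA, log2) of every kept probe set of 6 genes, ordered by size, with the limma standard error; purple points have an unadjusted p under 0.05. Each of the 6 genes has purple points on both sides of 0, from 1 low and 2 high in Tpm3 and Gpm6b to 9 low and 9 high in Macf1.

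Among those of the 18 that lay higher after QKI siRNA, the largest difference was in Dync1i2, an intermediate chain of the dynein motor. Probe set 5773612 had relative values of -1.82, -1.53 and -0.32 after QKI siRNA, -3.41, -3.03 and -4.25 after hnRNP A1 siRNA, and -3.40, -2.54 and -2.81 in the control. The difference of 2.34 ± 0.46 had an adjusted p of 0.579. Wdfy3, a scaffold of selective autophagy, had values of -0.87, -1.09 and -0.41 against -2.99, -3.37 and -2.51, and -3.55, -3.38 and -3.07 in the control, at probe set 6275084. In both genes the hnRNP A1 siRNA arrays overlapped with the control and the QKI siRNA arrays did not. Paip1, a partner of the poly(A)-binding protein in translation, differed by 1.96 ± 0.37 at probe set 5773940. Against the non-silencing control the difference was 0.87 after QKI siRNA and -1.09 after hnRNP A1 siRNA. Against untreated cells it was 1.69 ± 0.37 and -0.28 ± 0.37.

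A smaller set departed from the non-silencing control after hnRNP A1 siRNA instead. Sorcs1, a sorting receptor, had relative values of 2.01, 2.17 and 2.06 after QKI siRNA and 2.19, 1.86 and 1.57 in the control, but 0.48, 0.71 and 0.76 after hnRNP A1 siRNA, at probe set 6140073. The difference was 1.43 ± 0.23 (adjusted p = 0.308). Trmt9b, a member of a family of transfer RNA methyltransferases, had 0.10, 0.20 and -0.00019 after QKI siRNA, -1.31, -1.54 and -0.999 after hnRNP A1 siRNA, and -0.14, -0.30 and -0.33 in the control. Ninj1, a protein of plasma membrane rupture, had -0.73, -0.80 and -1.09 after QKI siRNA, 0.43, 0.31 and 0.25 after hnRNP A1 siRNA, and -0.58, -0.84 and -0.52 in the control. In each of these 3 genes the hnRNP A1 siRNA arrays stood outside the range of both other siRNA groups. Against untreated cells, hnRNP A1 siRNA differed by -0.95 ± 0.23 in Sorcs1 and -1.37 ± 0.22 in Trmt9b. In Ninj1 it differed by only 0.20 ± 0.25 from untreated cells, and QKI siRNA by -1.01 ± 0.25. Which group departed in Ninj1 therefore depends on the control chosen.

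**Figure D4:**
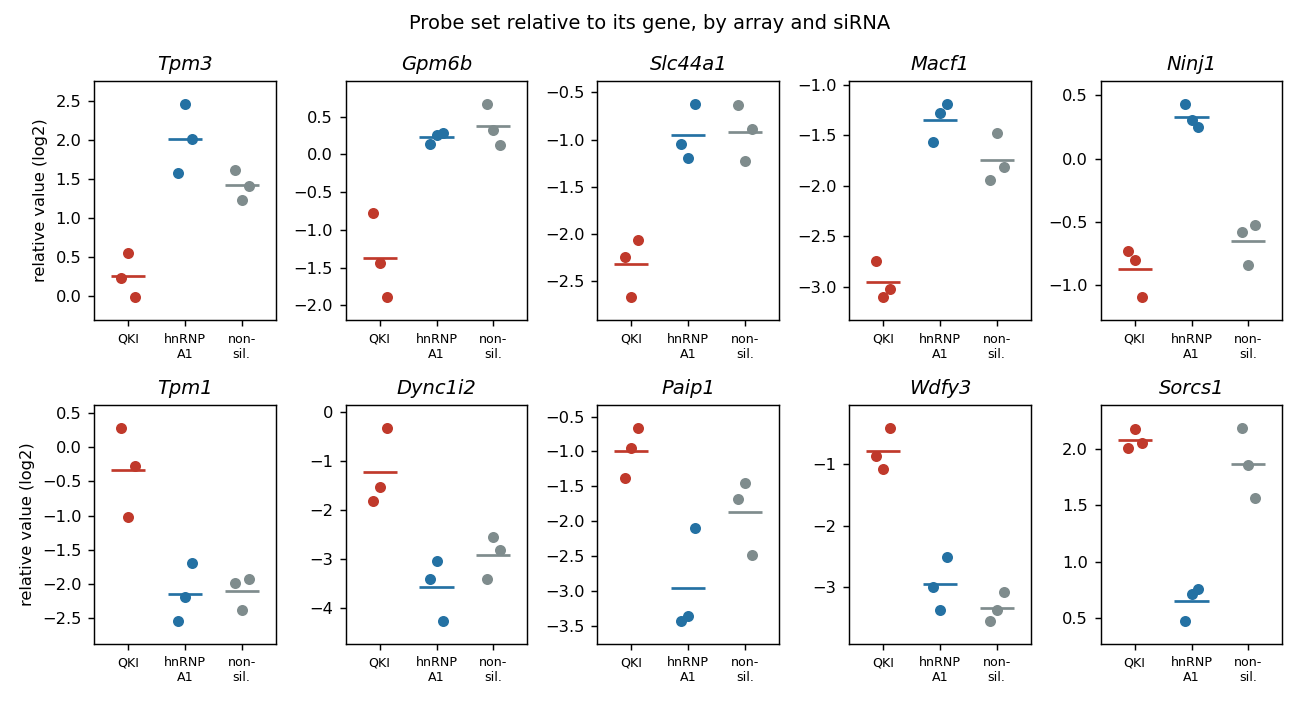
Relative value (log2) of 10 named probe sets on each array of QKI siRNA, hnRNP A1 siRNA and non-silencing siRNA, with a line at the group mean and a separate vertical scale per gene. In Tpm3, Gpm6b, Slc44a1, Macf1, Tpm1, Dync1i2 and Wdfy3 the QKI siRNA arrays stand apart from both others, and in Ninj1 and Sorcs1 the hnRNP A1 siRNA arrays do.

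The remaining 8 of the 18 were chosen by the same rule. Atp11b, a lipid flippase, lay higher after QKI siRNA by 1.61 ± 0.31, and Rrp1b, a nucleolar protein, lay lower by -1.85 ± 0.34. The calcium release channel gene Ryr3 differed by -1.81 ± 0.35, and A2m, a protease inhibitor, by -1.78 ± 0.36. Probe sets with a mean log2 value under 4 made up the lower end of brightness: Pcdhga4, a protocadherin, at 1.98 ± 0.34, Avp, the vasopressin precursor, at 1.13 ± 0.22, G6pc1, a glucose-6-phosphatase, at 1.26 ± 0.26, and Lhx9, a homeodomain factor, at -1.51 ± 0.29. The filter on low values kept probe sets from a mean of 3.40 upwards, so these 4 lay little above it. The G6pc1 difference was made up of 0.56 in the probe set and -0.70 in the rest of the gene. 

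Setting each siRNA beside the non-silencing control shows which group departed further from that control. In Ninj1, Paip1, Rrp1b and Lhx9 the other group departed further from untreated cells. Rrp1b differed from the non-silencing control by -1.27 after QKI siRNA and 0.58 after hnRNP A1 siRNA. From untreated cells it differed by -0.83 and 1.02. For Lhx9 these values were -0.87 and 0.65, then -0.63 and 0.88. The 2 comparisons with the non-silencing control share its arrays, and each is given as its own value. At 15 of the 18 probe sets QKI siRNA differed from the control at an unadjusted p under 0.05, and at 7 hnRNP A1 siRNA did, 4 of them shared. In the whole table those shares were 8.3% and 6.41%. The difference from the control was larger in size after QKI siRNA at 14 and after hnRNP A1 siRNA at 4, and at 12 the signs were opposite. Because the 18 were chosen on the same siRNA arrays by the gap between the siRNAs, departures from the shared control and opposite signs are favoured by that choice, so these counts are a description and nothing is read from them against the whole table.

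The arrays of the stable lines belong to neither siRNA group, although in the reported fit all 18 arrays share 1 estimate of the spread. Between the QKI shRNA line and the non-silencing shRNA line, 12.5% of probe sets had an unadjusted p under 0.05 and 614 of 115440 (0.532%) were called by limma. Of the 18 probe sets 10 had an unadjusted limma p under 0.05 there, 8 of them in the direction of QKI siRNA against its control. Those in the opposite direction were Avp, at -0.60 ± 0.22 in the line, and Ninj1, at 0.76 ± 0.25. Whatever their p, 11 of 18 had the direction of QKI siRNA against its control. The share of all probe sets with that direction was not computed, so no agreement between siRNA and line is read from these counts. The 4 called in the stable line, Tpm3, Pcdhga4, Slc44a1 and Paip1, all had the direction of QKI siRNA. With the 6 stable-line arrays fitted alone, an alternative added after seeing the data, 141 probe sets (0.122%) were called, among them Pcdhga4 (limma adjusted p = 0.00497) and Slc44a1 (adjusted p = 0.0447) but not Tpm3 (adjusted p = 0.0773) or Paip1 (adjusted p = 0.0863). In Pcdhga4 the difference between the lines lay in the rest of the gene, at a mean log2 value of 3.27 against 6.51, and not in the probe set, at 3.67 against 3.43. In Tpm3 it lay in the probe set, at -1.78 with -0.10 in the rest of the gene, and likewise in Slc44a1, at -2.01 with -0.28. Tpm3 had relative values of 0.14, 0.99 and 0.29 in the QKI shRNA line against 2.10, 2.21 and 2.15 in its control, a difference of -1.68 ± 0.26 (limma adjusted p = 0.00599). Slc44a1 had -1.42, -1.72 and -1.51 against 0.01, 0.36 and 0.18, a difference of -1.73 ± 0.25 (adjusted p = 0.00364). Tpm1 probe set 6485754, named from the list of cytoskeletal genes, differed by 2.54 ± 0.40 in the line (adjusted p = 0.00601, and 0.0589 with those arrays alone). Gpm6b differed by 0.16 ± 0.30 in the line (adjusted p = 0.884), on the other side from QKI siRNA. The gene-level value of Qki itself differed by only -0.25 ± 0.22 between the lines (adjusted p = 0.656).

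**Figure D5:**
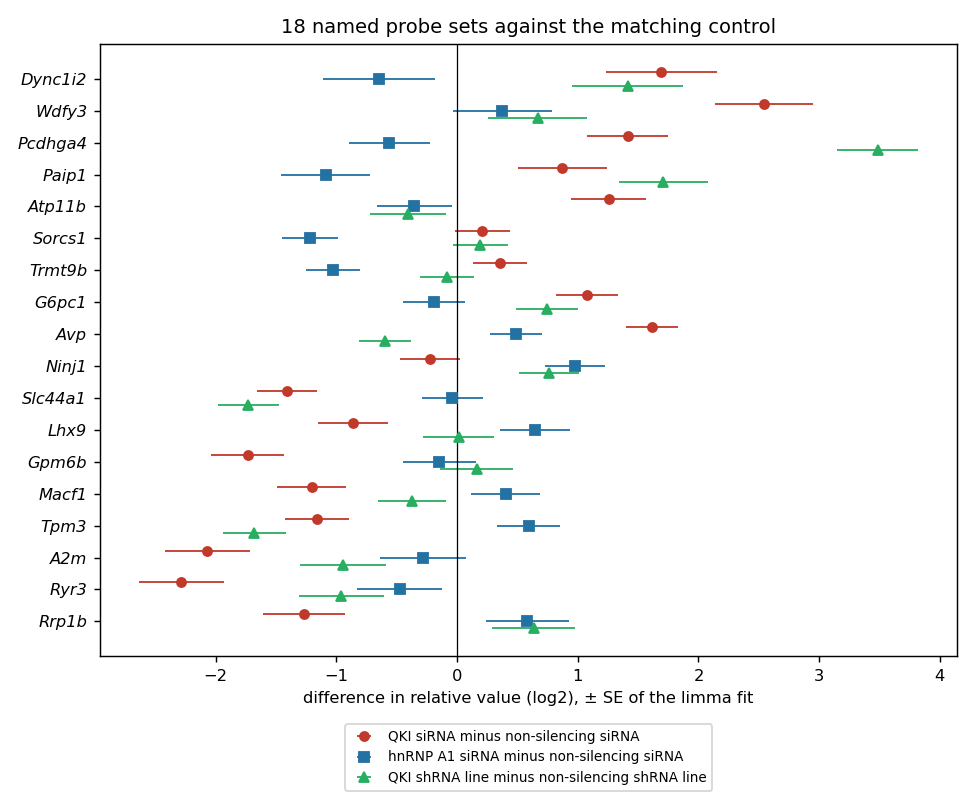
Difference in relative value (log2, ± limma SE) at the 18 named probe sets for QKI siRNA and hnRNP A1 siRNA against non-silencing siRNA and for the QKI shRNA line against the non-silencing shRNA line. QKI siRNA departs further from the non-silencing control at 14 of 18. The shRNA line lies on the same side as QKI siRNA at 11 of 18. Among these are Tpm3, Slc44a1, Paip1 and Pcdhga4, for Pcdhga4 through the rest of the gene. Avp and Ninj1 lie on the opposite side, at an unadjusted limma p under 0.05 in the line.

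Reported QKI targets were the list with the largest share of probe sets at an unadjusted p under 0.05. Of 15 listed genes 12 could be tested, 0 were called, and 3 had a Simes p under 0.05: Macf1, Mag and Mbp. Of their 238 probe sets 35, or 14.7%, had an unadjusted p under 0.05, 15 higher after QKI siRNA and 20 higher after hnRNP A1 siRNA, beside 4.74% in the whole table. Macf1, Mag and Mbp held 29 of the 35, and the other 9 genes had 6 of 106, or 5.66%. The median difference of the list was 0.06 against 0.01 in all probe sets. With any 1 array left out 25 to 40 of the 238 were at that threshold, the 40, or 16.8%, without QKI siRNA array 1, where the whole table had 9.44%. With genes that differ by over 1 log2 unit in total level left out it was 24 of 213, or 11.3%. Under diffSplice, which gives all probe sets of a gene 1 common spread, it was 9 of 238, or 3.78%, beside 3.02% in the whole table. Nfasc, a cell adhesion protein of nodes and a listed target, had relative values of -2.47, -0.80 and -1.85 after QKI siRNA at probe set 5879895, against -0.64, 0.14 and 0.25 after hnRNP A1 siRNA and 0.03, -0.31 and -0.07 in the control. The QKI siRNA arrays lay below both other siRNA groups (difference -1.62 ± 0.49, limma unadjusted p = 0.00369).

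Mag, the myelin-associated glycoprotein whose transcript is spliced into a long and a short form, had 5 of 14 probe sets at an unadjusted p under 0.05. Probe set 6319226 had relative values of -0.36, -0.43 and -0.28 after QKI siRNA, -1.16, -1.05 and -3.22 after hnRNP A1 siRNA, and -1.76, -1.47 and -2.09 in the control. The QKI siRNA arrays were the highest of these siRNA groups, and array 3 of hnRNP A1 siRNA was far below its group. The difference was 1.46 ± 0.43 (unadjusted p = 0.00332, adjusted p = 1.00), made up of 0.11 in the probe set itself and -1.35 in the rest of the gene. Mag probe set 6067354 went the other way, at -0.98 ± 0.30, and in the QKI shRNA line it differed by -1.58 with an adjusted p of 0.022, or 0.0664 with the stable-line arrays alone. Between the siRNAs its own value differed by -2.15 and the rest of the gene by -1.17. Mbp, myelin basic protein, had 6 of 11 probe sets at that threshold, 3 in each direction. Its probe set 6623886 had relative values of 1.52, 0.69 and 1.87 after QKI siRNA, 2.44, 2.36 and 2.48 after hnRNP A1 siRNA, and 1.99, 2.18 and 2.13 in the control, with a difference of -1.07 ± 0.31, made up of -2.39 in the probe set and -1.32 in the rest of the gene.

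Mag and Mbp also moved in total level, and unequally between arrays. Mbp had gene-level values of 5.66, 5.83 and 7.58 after QKI siRNA, 7.06, 7.60 and 10.14 after hnRNP A1 siRNA, and 8.51, 9.58 and 9.50 in the control. Mag had 4.85, 5.09 and 6.45, then 6.08, 6.24 and 7.85, and 7.09, 7.13 and 7.22. Array 3 of both knockdowns was the highest of its group in both genes. The differences of -1.91 ± 0.70 for Mbp and -1.26 ± 0.43 for Mag had an adjusted p of 1.00 in limma. Some probe sets of these genes were dim: Mbp probe set 5792473 had log2 values of 3.22 to 3.95 on these 6 arrays, and its relative value differed by 1.57. Over all genes, 62% of the 5475 probe sets at an unadjusted p under 0.05 moved opposite to the rest of their gene, beside 56.2% of all probe sets, and 58% lay below their gene's mean value, beside 50.8%.

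The list of myelin genes overlaps with these, holding Mag and Mbp. Of 25 listed genes 20 were tested, 0 were called, and Gpr37, an orphan receptor of oligodendrocytes, joined Mag and Mbp with a Simes p under 0.05. Of 206 probe sets 22, or 10.7%, had an unadjusted p under 0.05. Without genes that differ by over 1 log2 unit in total level it was 11 of 181, or 6.08%, and with any 1 array left out it was 16 to 25 of 206. Without QKI siRNA array 1 it was 24, or 11.7%, beside 9.44% in the whole table. Gpr37, Mag and Mbp held 13 of the 22, and the other 17 genes had 9 of 178, or 5.06%. Gpr37 probe set 5737712 was dim, at a mean of 3.82, and had -0.47, -1.34 and -1.54 after QKI siRNA and -0.08, 0.19 and -0.65 after hnRNP A1 siRNA, so the groups overlapped.

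Reported hnRNP A1 targets lay near the background. Of 15 listed genes 10 were tested, 0 were called, and Mag, which stands in both lists, was the 1 gene with a Simes p under 0.05. Of 127 probe sets 5.51% had an unadjusted p under 0.05. Cd44, an adhesion receptor with variable exons, had 2 of 16 such probe sets. At 5783798 its relative values were 1.24, 0.74 and 0.29 after QKI siRNA, 1.73, 2.41 and 1.68 after hnRNP A1 siRNA, and 2.04, 1.65 and 0.91 in the control. The difference of -1.18 ± 0.41 had an unadjusted p of 0.00956. Pkm, the pyruvate kinase whose mutually exclusive exons are a known hnRNP A1 target, had only 3 probe sets, 0 of them at an unadjusted p under 0.05. The largest difference was 0.54 ± 0.33.

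Genes of RNA-binding proteins themselves showed little. Of 25 hnRNP family genes 12 were tested, and Hnrnpm alone had a Simes p under 0.05, at a dim probe set with a mean of 3.63. The share of probe sets at an unadjusted p under 0.05 was 5.83%. Of 60 splicing regulators 38 were tested, 0 had a Simes p under 0.05, and the share of 410 probe sets was 2.44%, below that of the whole table. Srsf7, a serine- and arginine-rich splicing factor, had 0.51, -1.45 and -2.52 after QKI siRNA and 0.72, 0.77 and -0.11 after hnRNP A1 siRNA at probe set 5635307, with overlapping groups. Qki, which counts among the splicing regulators, had 3 of 14 probe sets at that threshold. The low ones, 2 in number, differed by -0.66 and -0.60, and the high one, at 0.86, had log2 values of only 3.21 to 3.49 after QKI siRNA.

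In the other lists 0 genes were called as well. Of 59 cytoskeletal and adapter genes 52 were tested, 3 had a Simes p under 0.05, namely Macf1, Tpm1 and Tpm3, and 6.17% of 1475 probe sets had an unadjusted p under 0.05. Of 53 adhesion and matrix genes 42 were tested, with Sparc, a matrix glycoprotein, at a Simes p under 0.05 and 4.26% of 869 probe sets. Sparc probe set 5759748 had -0.42, -0.98 and -0.47 after QKI siRNA, 0.34, 0.25 and 0.65 after hnRNP A1 siRNA, and -0.14, -0.03 and -0.50 in the control. Its groups did not overlap, and the difference was -1.04 ± 0.28 (unadjusted p = 0.00162). Of 38 channel and receptor genes 35 were tested, and the calcium pump gene Atp2b2 and the calcium channel genes Cacna1b and Cacna1c had a Simes p under 0.05, with 4.94% of 911 probe sets. Cacna1c lay lower after QKI siRNA by -1.30 ± 0.31, with groups apart, and Cacna1b higher by 1.79 ± 0.45, with overlapping groups. Progenitor and lineage genes, 16 tested of 25, had 3.33% of 150 probe sets, and long genes of chromatin and transcription factors, 28 tested of 38, had 3.24% of 678, with 0 genes at a Simes p under 0.05 in either list.

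A set of 6 genes was followed because other comparisons of these data had named them. Apart from Mag, the probe set of lowest p in each gave these differences: Ntrk2, a neurotrophin receptor, at -0.66 ± 0.23, Fn1, fibronectin, at -0.75 ± 0.28, Mga, a transcription factor, at 0.72 ± 0.23, Adgrb1, an adhesion receptor, at 0.73 ± 0.34, and Snd1, a nuclease of RNA silencing, at -0.77 ± 0.38. All 5 had an adjusted p of 1.00 in limma, and the unadjusted p ran from 0.0057 in Mga to 0.0565 in Snd1. Larger differences at other probe sets, on the opposite side, were 1.06 ± 0.56 in Ntrk2 (unadjusted p = 0.0748) and 0.89 ± 0.36 in Fn1 (unadjusted p = 0.0236).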

How the data were processed

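The authors deposited log2 intensities, and the submitters' processing notes name RMA and Partek as tools. Their versions, a genome build and the annotation behind the values were not given in the sources used here. RNA was extracted with Trizol and labelled on the sense strand after ribosomal RNA was reduced, per the labels' protocols. No read depth applies, and the number of arrays limits the precision.

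Of 204586 probe sets 149521 had 1 gene symbol, 962 several and 54103 none in the platform annotation. Symbols were updated through RefSeq of GRCr8, for names only, which renamed 23034. A probe set was kept if it had 1 symbol, if its mean over all 18 arrays reached the 25th percentile, and if its gene had at least 3 such probe sets. The relative value of a probe set was computed as its log2 value minus the mean of its gene's other kept probe sets on the same array. The 18 arrays entered a limma fit with a mean for each of the 6 groups (limma 3.58.1, R 4.3.3, lmFit then eBayes, two-sided). The spread had 12 residual degrees of freedom and 5.67 from the prior, and p-values were adjusted by Benjamini-Hochberg over all kept probe sets, or over genes after Simes. Replicate numbers were not used as pairs.

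Named genes are the targets, the 12 of lowest Simes p, 8 per direction, up to 3 per list, and 6 named by other comparisons of these data. The 8 per direction came from probe sets whose arrays did not overlap between the siRNAs. They were filled by lowest unadjusted p since none was called. The comparison, the lists and the tests were chosen with earlier results of these data known. Probe sets of a gene are not independent, since each enters the mean of the others.

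On simulated data for this comparison, with 115440 probe sets, the test called 40.3% of 67 probe sets changed by 4-fold, 1.49% of 67 changed by 2-fold and 0% of 66 changed by 1.5-fold, and 1 unchanged probe set. The method diffSplice called 79.1%, 4.48% and 1.52% of them and 173 unchanged probe sets, and is given as an alternative only.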

Additional observations from a re-analysis of the deposited data

How the results depend on the processing

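The number of called probe sets and genes was 0 in the reported fit and in most of the 19 alternatives. With diffSplice there were 25 called probe sets and 17 called genes, with 11 probe sets higher after QKI siRNA and 14 higher after hnRNP A1 siRNA. With a trended and robust spread there were 1 and 1, both Tpm3 (adjusted p = 0.0224, over a range of 0.0224 to 1.00 among its alternatives), and 1 listed gene called. With the stricter filter there were 0 probe sets and 1 gene, again Tpm3, which is also the 1 listed gene called; fewer probe sets were tested there. Leaving out each array in turn gave 0 to 1 called probe sets and 0 to 1 called genes, the 1 being Rag2 without QKI siRNA array 1, and 0 called listed genes. The 46 named probe sets kept their sign in all 846 values under the alternatives. They were chosen by low p on arrays that every alternative reuses in whole or part, which favours a kept sign. Of these values 6 passed the threshold: Tpm3 as above, and Dync1i2, Gpm6b, Paip1, Wdfy3 and Slc44a1 under diffSplice. Why these counts differ was not tested. The counts for reported QKI targets and myelin genes under the alternatives were added after seeing the data, as were fits without the stable-line arrays, with 0 called probe sets, and of those 6 arrays alone, where the calls of Tpm3, Paip1, Tpm1 and Mag between the lines were lost.

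With the replicate number as a block, 0 probe sets and 0 genes were called, and 5.14% of probe sets had an unadjusted p under 0.05. Deviations of same-numbered arrays correlated at 0.162, 0.169 and 0.031, and array 3 of QKI siRNA correlated best with array 2 of hnRNP A1 siRNA, so the numbers were not taken as pairs. A shift common to all values of an array drops out of a relative value. With 3 arrays per group and a median standard error of 0.316, most differences under 1 log2 unit could not be resolved over 115440 tests.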

Other observations

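The probe sets that diffSplice alone called include genes not described above, and their values are given without a call, since that method called many unchanged probe sets in simulated data. Of its 25 probe sets, in 25 genes, 24 had an unadjusted p under 0.05 in the reported limma fit and 10 had one under 0.001. Gkap1, a protein anchored at the Golgi, had relative values of 0.67, 0.53 and 1.89 after QKI siRNA, -1.97, -0.96 and -2.32 after hnRNP A1 siRNA, and 0.45, -0.50 and -1.77 in the control, where all arrays lay below the QKI siRNA arrays and 1 lay in the hnRNP A1 siRNA range (limma unadjusted p = 0.000326, adjusted p = 0.829). Ppp6r2, a regulatory subunit of protein phosphatase 6, had -0.75, -1.22 and -0.20 after QKI siRNA, 0.83, 0.96 and 0.56 after hnRNP A1 siRNA, and 0.80, 0.29 and -0.11 in the control (unadjusted p = 0.000813). Myof, a membrane repair protein, had -0.15, -0.12 and -0.48 after QKI siRNA, 1.83, 1.46 and 2.28 after hnRNP A1 siRNA, and 0.54, 0.48 and 0.62 in the control, which lay between the 2 siRNAs (unadjusted p = 0.00429). Eci2, an isomerase of fatty acid oxidation, had -1.50, -0.03 and -0.91 after QKI siRNA against -3.25, -2.38 and -2.65 after hnRNP A1 siRNA, with the control at -2.54, -3.18 and -2.86, beside the hnRNP A1 siRNA arrays (unadjusted p = 0.000155). These 4 genes were chosen after their values were seen.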
